A study of Homo sapiens with 4 samples.

Results

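Trophinin (TRO) and 8 other broadly expressed genes of the MAGE family (MAGED1, MAGED2, MAGED4, MAGEE1, MAGEH1, MAGEF1, NDN and MAGEL2) were examined in a gastric carcinoma cell line depleted of the deubiquitinase USP47. The 9 genes were taken by symbol from 63568 gene identifiers, and 7 of the 9 had enough reads to be among the 21932 genes tested, while NDN and MAGEL2 did not. The set was chosen by a result of these same libraries, the fall of TRO with USP47 shRNA, so the values of the members in that contrast are given as a description. Where a member is said to be called, it passed the threshold of the fit across all genes, and this is no independent test of it. RNA-Seq had been done on HGC-27 cells, an established gastric carcinoma line. All cells had been infected with lentivirus and selected with puromycin, and they stably carried either a scrambled control shRNA (2 libraries) or shRNA against USP47 (2 libraries). The sources used here do not say whether the knockdown libraries carried the same USP47 shRNA or different ones. The labels call the 2 libraries of a group biological duplicates without naming separate cultures. The p-values measure only the spread between these libraries.

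MAGE proteins share a MAGE homology domain, through which many of them bind a RING-type ubiquitin ligase and change its activity, its location or the substrates it takes. The type I genes (MAGEA, MAGEB and MAGEC) are normally silent outside the germ line and are switched on in many tumours, whereas the type II genes described here are expressed in many tissues and are prominent in the nervous system. Trophinin is the member of the MAGE-D group that was first described as an adhesion molecule of trophoblast and uterine epithelium at embryo implantation, where it works with bystin (BYSL) and tastin (TROAP).

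The members fell into 2 kinds by gene structure in the annotation lifted to GRCh37. The 4 genes of the MAGE-D group each had 13 exons in their canonical transcript: TRO (X, 54946895 to 54957864), MAGED2 (X, 54834032 to 54842448), MAGED1 (X, 51546103 to 51645450) and MAGED4 (X, 51927972 to 51935364), all on the plus strand. The other 5 each had 1 exon: MAGEE1 (X, 75648103 to 75651735, plus), MAGEH1 (X, 55478560 to 55479999, plus), MAGEF1 (3, 184428152 to 184429852, minus), NDN (15, 23930547 to 23932452, minus) and MAGEL2 (15, 23888696 to 23893014, minus). TRO and MAGED2 lay 113 kb apart, start to start, and a snoRNA gene named SNORA11 lay inside each of them on the same strand.

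Promoter windows (250 bases before to 50 after a start, from RefSeq on GRCh38.p14, found again in GRCh37 by exact match) were matched by symbol for 8 of the 9 members. MAGEH1 had no entry. The sequences below come from 2 pairs of MAGE-D genes that share promoter sequence. They are shown because 1 gene of each pair was called lower with USP47 shRNA and the other was not. MAGED4 and its copy MAGED4B, not shown, shared 276 of 276 aligned bases, and both were called lower (log2 fold change -0.88). MAGED1 and MAGED2 each had 2 listed starts, and their stretches are from the window of start 2. At start 1 the longest run shared with MAGED4 or TRO, respectively, had 8 bases. The capitals mark the longest run of identical bases in each pair, and all are on the plus strand of GRCh37.
TRO, chrX:54947217-54947246: agaggcaGGACCACTTCCGGCCagggaggg
MAGED2, chrX:54834767-54834796: aggggcgGGACCACTTCCGGCCtagagagg
MAGED4, chrX:51927875-51927904: gaaaggGCTTTTGTTGGGAAAGCgggcggg
MAGED1, chrX:51636603-51636632: gacgaaGCTTTTGTTGGGAAAGCaggcggg

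The run shared by TRO and MAGED2 had 15 bases and was found, on either strand, in 2 of the 35116 promoter windows of the RefSeq table, which were those of TRO and MAGED2. It lay in an aligned stretch of 81 positions of which 68 (84.0%) were identical. In TRO and MAGED2 this stretch, and in MAGED1 the stretch described next, lay past the start of the annotated gene. The run shared by MAGED4 and MAGED1 had 17 bases and was found in 4 windows, which belonged to MAGED1, MAGED4 and MAGED4B. It lay in a stretch of 58 aligned positions with 46 (79.3%) identical. TRO and MAGED4 were the members of these pairs that fell.

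The first of these runs holds the ETS-like word CTTCCGG, which was present on either strand in 10.3% of all windows and, among the members, in those of TRO, MAGED1, MAGED2 and MAGEF1. A longer word of NRF1 type, GCGCATGCG, was present on either strand in 1.92% of all windows and in those of MAGED1 and MAGED4. The GLI-like word (GACCACCCA, either strand, 0.236% of all windows) was in no window of the members, and the E-box CAGGTG (either strand, 20.6%) was only in that of NDN among the members with an entry. The TRO window had 5 CpG and 51.0% GC, against medians of 14 CpG and 58.7% GC over the table. These matches describe letters in the windows and were not tested as binding sites.

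The libraries held between 15649899 and 20140273 counts on genes. USP47 itself had 1357 and 1297 counts with control shRNA and 749 and 309 with USP47 shRNA (log2 fold change -1.34, SE 0.21, adjusted p = 0.00362, edgeR's quasi-likelihood test, adjusted by Benjamini-Hochberg over all genes tested). Across all genes tested, 16.1% were called at an adjusted p under 0.05, 9.56% lower and 6.52% higher, and the median log2 fold change was -0.0083. The markers of the labelled tissue were low. The summed level of 7 epithelial markers was 4.04 to 6.47 CPM (counts scaled by library size after TMM normalisation), KRT18 and KRT19 had 0 or 1 count per library, and of 7 gastric markers 6 had fewer than 10 counts in every library. Mesenchymal markers summed to 481 to 647 CPM and fibroblast markers, led by COL3A1, to 2530 to 3460 CPM. The mesenchymal marker CDH2 was nearly absent, with 3 and 3 counts with control shRNA and 10 and 3 with USP47 shRNA, and was not tested. Leukocyte (5.57 to 8.02 CPM) and endothelial (0.825 to 1.33 CPM) markers were lower. Neuronal (20.8 to 32.2 CPM) and erythroid (24.5 to 33.8 CPM) markers were below the mesenchymal and fibroblast sums but above the epithelial one. The neuronal sum was mostly SYT1 (19.6 to 29.4 CPM), and the erythroid sum nearly all HBA1 (24.4 to 33.7 CPM). Some single markers fell with USP47 shRNA, as members did, and others did not. FN1 (log2 fold change -1.34), COL1A2 (-1.23), COL1A1 (-0.75) and PDGFRA (-0.63) were called lower in edgeR, while VIM (-0.14) and COL3A1 (0.30) were not called. EPCAM (-1.84) and SNAP25 (-2.24), with at most 12 and 21 counts in a library, were also called lower. The other tested markers of these kinds were not called. They were CDH1 (0.56), KRT8 (-0.46), CLDN4 (-0.34), ZEB1 (-0.21), DCN (0.24), LUM (-0.17), RBFOX3 (-0.09) and SYT1 (-0.40). The part of the markers in the falls of the members was not tested. In bulk libraries, fewer cells of one kind and less RNA per cell cannot be told apart.

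With USP47 shRNA, TRO, MAGEE1, MAGEF1, MAGEH1 and MAGED4 were lower than with control shRNA. MAGED1 and MAGED2 kept CPM levels that overlapped between the groups. Of the 7 members tested, 5 were called lower and 0 higher (0 also at an unadjusted p under 0.05 in edgeR and 0 with DESeq2), beside 9.56% of all genes called lower. In the same 5 members the groups did not overlap, each library with USP47 shRNA being the lower, which was so for 31.7% of all genes tested. Since the set was selected on this contrast, nothing is read from these counts. MAGEE1 passed the count filter only through its control libraries, where it was high.

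**Figure D1:**
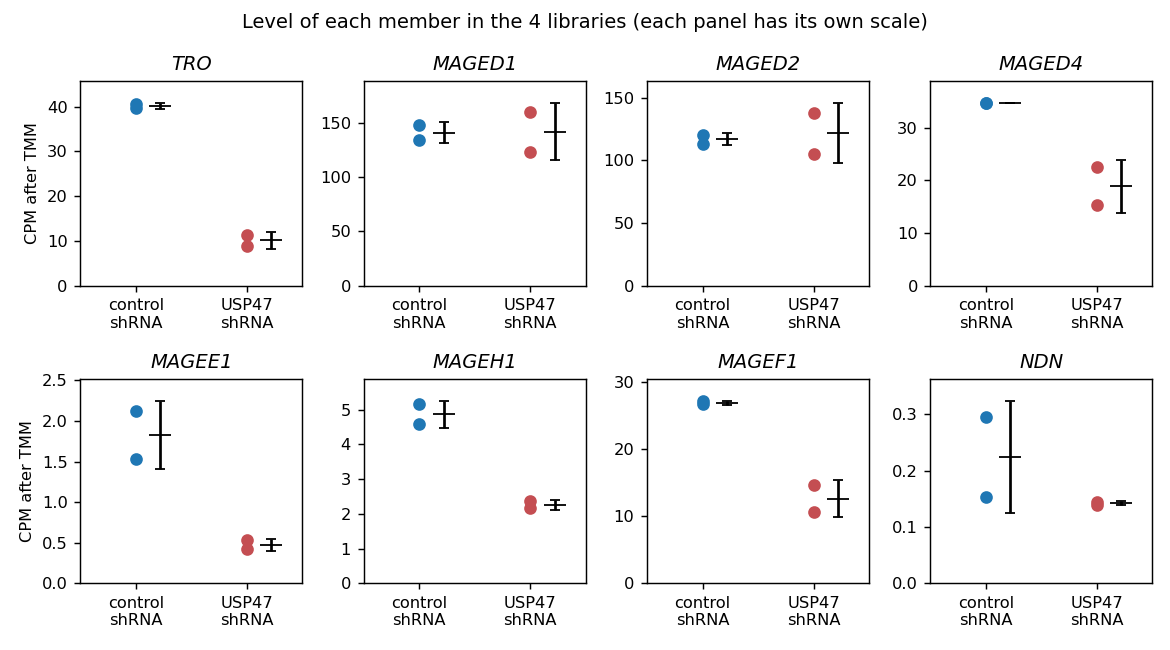
Level of 8 members in each library, in CPM after TMM normalisation (y axis, from 0, with a scale of its own in each panel). Points are single libraries (blue, control shRNA; red, USP47 shRNA) and the black marks beside them the mean and SD of the 2 libraries. TRO, MAGED4, MAGEE1, MAGEH1 and MAGEF1 had both knockdown points below both control points, and in MAGED1 and MAGED2 the points overlapped. MAGEL2, with 1 read in all, is not drawn.

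TRO was counted 672 and 797 times with control shRNA, and 183 and 164 times with USP47 shRNA. After scaling this was 39.6 and 40.6 CPM against 8.80 and 11.4 CPM, a mean of 40.1 ± 0.711 against 10.1 ± 1.86 (SD, n = 2). Each knockdown library was far below both controls, at 21.9% and 28.5% of the control mean. The log2 fold change was -2.00 (SE 0.16). On the TPM scale, which divides by gene length and by the sum over all genes, TRO went from 8.18 ± 0.590 to 1.87 ± 0.0381 (SD, n = 2). Among the 1724 genes that were called lower and averaged 1 or more on the log2 CPM scale, TRO ranked 41 by the size of the fall.

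MAGEE1, which binds dystrobrevins at the membrane, had the next lowest fold change of the members but few reads. It was counted 36 and 30 times with control shRNA and 11 and 6 times with USP47 shRNA. This came to 2.12 and 1.53 CPM against 0.529 and 0.418 CPM. The groups did not overlap, and the log2 fold change was -1.89 with an SE of 0.36, the widest among the members.

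MAGEF1, known to direct a ligase that acts on the cytosolic iron-sulfur assembly factor MMS19, had 453 and 533 counts with control shRNA and 221 and 209 with USP47 shRNA. Its levels were 26.7 and 27.2 CPM in the controls, and 10.6 and 14.6 CPM in the knockdown libraries. Both knockdown libraries were therefore below both controls, and the mean remaining level was 46.8% of control (log2 fold change -1.11, SE 0.17).

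MAGEH1, a small single-exon member, was counted 78 and 101 times with control shRNA and 49 and 31 times with USP47 shRNA. The control levels were 4.60 and 5.15 CPM and the knockdown levels 2.36 and 2.16 CPM. The libraries of a group were close to each other and the groups did not overlap (log2 fold change -1.10, SE 0.21). Without control replicate 2 the log2 fold change was -1.02 and MAGEH1 was no longer called.

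MAGED4 had 588 and 680 counts with control shRNA and 320 and 323 with USP47 shRNA. Both control libraries were at 34.7 CPM, and the knockdown libraries at 15.4 and 22.5 CPM. The knockdown libraries differed more from each other than in the other members that fell, yet both were below the controls (log2 fold change -0.88, SE 0.18). Every stretch of 50 bases of the canonical MAGED4 transcript was also in a transcript of MAGED4B. This gene is a second copy on the minus strand of X (51804923 to 51812315), so reads of the copies cannot be told apart. MAGED4B had 602, 703, 335 and 328 counts in the same order, close to MAGED4 in each library. Summed per library and fitted as 1 gene, the copies gave a log2 fold change of -0.88, which follows from their near-equal counts and is no separate check.

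MAGED1 (also called NRAGE), an adaptor of the neurotrophin receptor p75, had 2277 and 2903 counts with control shRNA and 2556 and 2300 with USP47 shRNA. Its levels were 134 and 148 CPM against 123 and 160 CPM. The knockdown libraries lay on either side of the controls, and the log2 fold change was 0.00 (SE 0.15). The value had no stable sign, from -0.20 without USP47 shRNA replicate 2 to 0.19 without USP47 shRNA replicate 1.

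MAGED2, whose loss in people causes antenatal Bartter syndrome, had 1921 and 2354 counts with control shRNA and 2179 and 1987 with USP47 shRNA. Its levels were 113 and 120 CPM against 105 and 138 CPM, again with the knockdown libraries on either side of the controls. The log2 fold change was 0.06 (SE 0.15), -0.02 with scaling by library size alone, -0.15 without USP47 shRNA replicate 2 and 0.26 without replicate 1. On the TPM scale as deposited the knockdown libraries were below both controls for MAGED1 and for MAGED2. The share of all genes for which this holds was taken on the CPM scale alone, where it was 31.7%. MAGED1 was at 32.0 ± 0.678 against 29.3 ± 0.512 TPM, and MAGED2 at 54.7 ± 2.69 against 51.8 ± 0.419 TPM (SD, n = 2).

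NDN (necdin) and MAGEL2 are imprinted neighbours in the Prader-Willi region of chromosome 15. NDN was counted 5 and 3 times with control shRNA and 3 and 2 times with USP47 shRNA. MAGEL2 was counted once, in USP47 shRNA replicate 1, and 51.2% of the 50-base stretches of its transcript were also in the pseudogene AC124309.1. A count of 0 allows up to 3 counts (counting error only). By library totals without TMM that is 0.149 to 0.192 CPM. Neither gene was tested, and a fall or a small difference in either was not detectable at this depth.

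**Figure D2:**
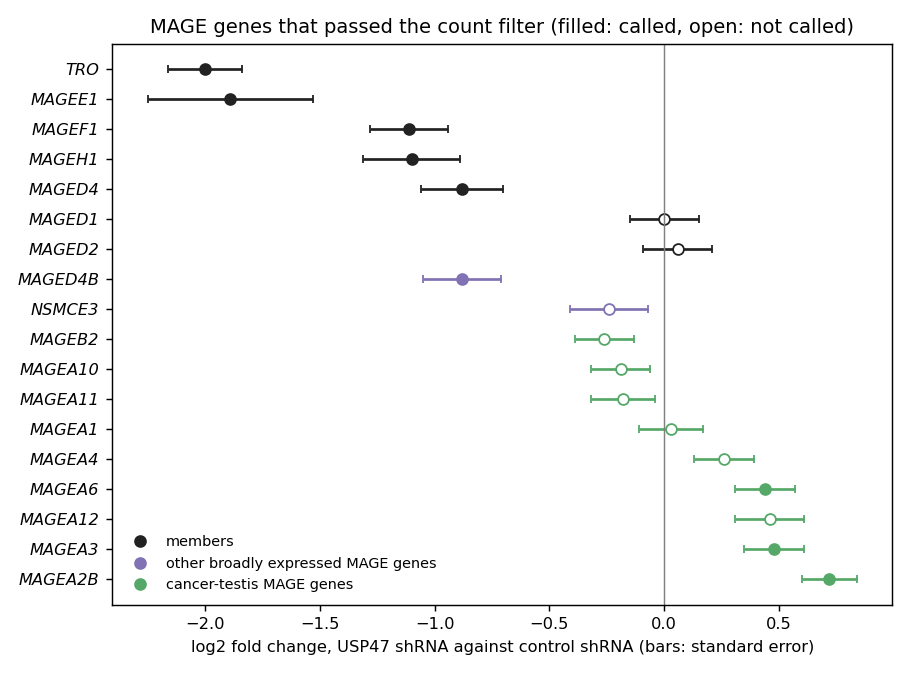
Log2 fold change of MAGE genes that passed the count filter, USP47 shRNA against control shRNA (x axis; bars, standard error of the edgeR fit on 2 libraries per group). Black points are the members, purple the other broadly expressed MAGE genes and green the cancer-testis MAGE genes, and filled points were called. TRO (-2.00) and MAGEE1 (-1.89) are at the top left, MAGED1 and MAGED2 at 0.00 and 0.06, and the called cancer-testis genes lie to the right of 0.

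By TPM, which allows levels of different genes to be compared per length, the order with control shRNA was MAGED2 (54.7 TPM), MAGED1 (32.0), MAGEF1 (21.9), MAGED4 (9.87), TRO (8.18), MAGEH1 (4.55), MAGEE1 (0.683), NDN (0.166) and MAGEL2 (0). No neighbours in this order overlapped between their 2 libraries, the closest being MAGED4 (9.24 and 10.5 TPM) and TRO (7.76 and 8.59 TPM). With USP47 shRNA the order of the first 4 was kept, and TRO (1.9 and 1.85 TPM) lay within the range of MAGEH1 (2.34 and 1.60 TPM), so these genes did not differ beyond their spread. MAGED4 is listed apart from MAGED4B, which had nearly the same TPM (9.82 in the controls).

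The 9 members summed to 137 and 127 TPM with control shRNA and to 100 and 98.6 TPM with USP47 shRNA. Without MAGED1 and MAGED2 the sums were 47.9 and 42.9 against 18.4 and 18.1 TPM. MAGED2 and MAGED1 thus made up a larger share of the summed TPM in the knockdown libraries. The share of MAGED2 went from 41.4% to 52.2% and that of MAGED1 from 24.3% to 29.4%. The share of TRO went from 6.18% to 1.88% and that of MAGEF1 from 16.6% to 9.34%.

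**Figure D3:**
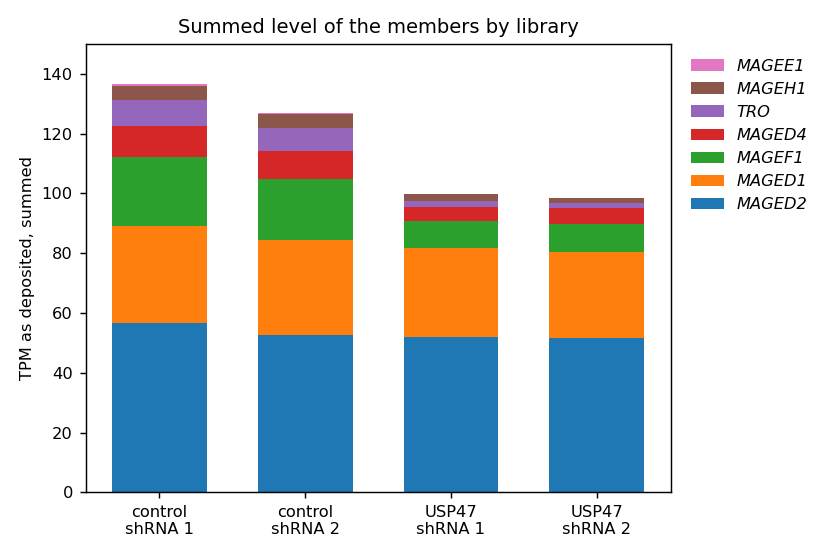
Deposited TPM of the members, stacked for each library (y axis from 0; NDN and MAGEL2, which would not be visible, are not drawn). The stacks reach 137 and 127 TPM with control shRNA and 100 and 98.6 TPM with USP47 shRNA, and the segments of MAGED2 and MAGED1 at the bottom keep most of their height.

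On the X chromosome, 22 of the 27 annotated genes that start within 500 kb of TRO and are not members had an identifier in the files, and 6 of these were tested. MAGED2, the member in this window, is described above. TSR2, which helps assemble the small ribosomal subunit, was the 1 called (log2 fold change -0.95, SE 0.14, adjusted p = 0.00242, edgeR), at 480.1 kb from TRO. ITIH6, 122.2 kb from TRO, was at -0.97 (SE 0.31, adjusted p = 0.0589, edgeR) and was not called. FGD1 (0.15), GNL3L (0.16), APEX2 (-0.10) and FAM104B (-0.35) were not called either. Of these 6, 1 was called, beside 16.1% of all genes tested, and their median, without MAGED2, was -0.22.

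**Figure D4:**
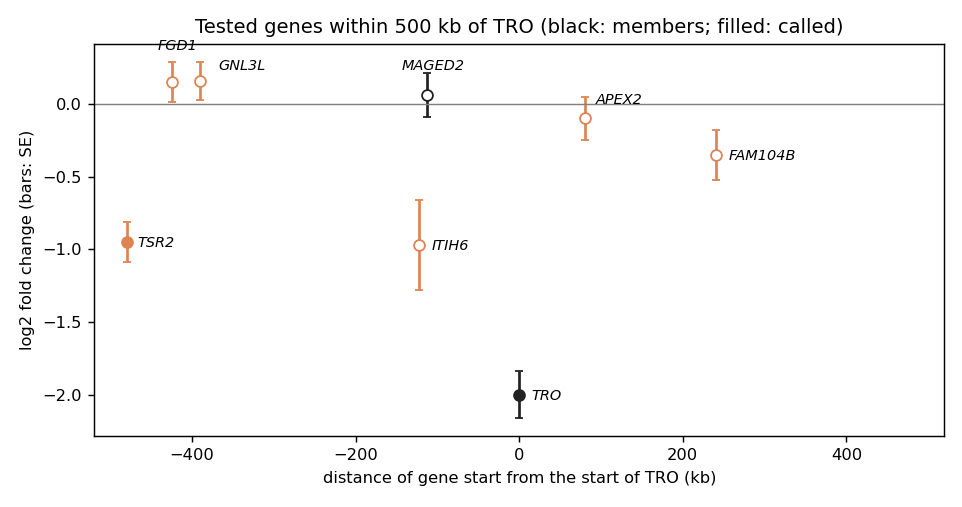
Log2 fold change of the tested genes within 500 kb of TRO (y axis; bars, standard error) against the distance of their start from that of TRO (x axis, kb). Black points are members and filled points were called. TRO is at -2.00, while MAGED2, at 112.9 kb before it, is at 0.06 and APEX2, at 79.9 kb after it, at -0.10.

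The genes whose pattern over the 4 libraries was most like that of TRO, by the distance between log2 CPM profiles centred on their own means, were PDGFRB (distance 0.0398), IL17RD (0.0796), TMSB4XP8 (0.105), EFR3B (0.121) and GPR173 (0.155), out of 15791 genes compared. PDGFRB, the beta receptor for platelet-derived growth factor, was at 8.49 and 9.02 CPM against 1.83 and 2.44 CPM. IL17RD, an inhibitor of FGF signalling, was at 19.5 and 19.2 CPM against 4.33 and 5.78 CPM. The log2 fold changes of the 5 genes lay between -2.13 and -1.91. The nearest member was MAGEE1 (0.632), followed by MAGEF1 (0.882), MAGEH1 (0.984) and MAGED4 (1.10), and MAGED1 (1.98) and MAGED2 (2.04) were far. With 2 libraries per group this distance largely follows the log2 fold change, so it gives no evidence apart from the fall by which TRO was chosen. The 15791 genes averaged 1 or more on the log2 CPM scale, and MAGEE1, at 0.34, lay below that level.

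Among the other broadly expressed MAGE genes, MAGED4B is described with MAGED4 above. NSMCE3, the MAGE subunit of the SMC5/SMC6 complex that acts in DNA repair, was at 12.7 and 14.5 CPM with control shRNA and 10.3 and 12.8 CPM with USP47 shRNA. The groups overlapped (log2 fold change -0.24, SE 0.17, adjusted p = 0.351, edgeR). MAGEE2 had at most 1 count in a library.

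None of the cancer-testis MAGE genes tested was called lower, and those called were higher. Of 26 listed, 24 had an identifier, 9 were tested, 3 were called higher (beside 6.52% of all genes) and 0 lower (0 also at an unadjusted p under 0.05 in edgeR and 0 with DESeq2), and their median log2 fold change was 0.26, beside -0.0083 over all genes tested. MAGEA2B was at 50.8 and 53.9 CPM with control shRNA and 84.2 and 88.0 CPM with USP47 shRNA (log2 fold change 0.72, SE 0.12, adjusted p = 0.00519, edgeR). MAGEA2 was listed at 0 in every library. MAGEA3 (0.48, SE 0.13, adjusted p = 0.0345) and MAGEA6 (0.44, SE 0.13, adjusted p = 0.0459, edgeR) were also called higher. MAGEA2 and MAGEA2B, and MAGEA3 and MAGEA6, are near-identical copies, so their split is uncertain. MAGEA4, a widely expressed member of this class in tumours, was at 0.26 (adjusted p = 0.197, edgeR) and was not called. Without control replicate 1 the adjusted p was 0.131 for MAGEA2B, 0.509 for MAGEA3 and 0.497 for MAGEA6, and without control replicate 2 it was 0.051, 0.195 and 0.273 (edgeR). The log2 fold changes in these fits were 0.68 and 0.76 for MAGEA2B, 0.39 and 0.57 for MAGEA3, and 0.39 and 0.49 for MAGEA6, with SEs of 0.26 to 0.27. MAGEA6 also missed the threshold with scaling by library size alone (adjusted p = 0.053, edgeR).

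Of 27 genes for the ligases and complexes with which MAGE proteins work, all tested, 1 was called lower and 2 higher, beside 16.1% of all genes called in either direction, with a median log2 fold change of -0.01. TRIM28 (0.31, adjusted p = 0.189), the ligase bound by MAGEA3 and MAGEA6, and TRIM27 (-0.15, adjusted p = 0.465), the ligase bound by MAGEL2, were not called by edgeR. PJA1 (-0.29, adjusted p = 0.212), the RING ligase bound by MAGED1, and USP7 (-0.19, adjusted p = 0.315), the deubiquitinase in the MAGEL2 complex, were not called by edgeR either. The called genes were WASHC2A (0.64, adjusted p = 0.00963) and WASHC2C (0.55, adjusted p = 0.0155, edgeR), near-identical copies that encode a subunit of the endosomal WASH complex, and CIAO2B (-0.53, adjusted p = 0.0319, edgeR), which works with MMS19 in iron-sulfur assembly. Without control replicate 1 or 2, none of these 3 calls held, with adjusted p-values of 0.104 to 0.267 (edgeR). The log2 fold changes in these fits were 0.72 and 0.55 for WASHC2A, 0.61 and 0.49 for WASHC2C, and -0.57 and -0.50 for CIAO2B, with SEs of 0.25 to 0.27.

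Of the trophinin partners, TROAP was at 95.3 and 94.5 CPM with control shRNA and 71.5 and 72.0 CPM with USP47 shRNA. Its log2 fold change of -0.40 (SE 0.12) was just past the threshold (adjusted p = 0.0472, edgeR) and missed it with the DESeq2 Wald test (0.0732), with DESeq2 size factors (0.0564) and without control replicate 1 (0.453) or 2 (0.352), where the log2 fold change was -0.40 and -0.41. BYSL was at 36.6 and 39.1 CPM against 40.1 and 46.5 CPM and was not called (0.19, SE 0.13, adjusted p = 0.351, edgeR).

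Of 22 binding partners of necdin, MAGED1 and MAGEE1, 21 were tested. Of these, 3 were called lower and 1 higher, beside 9.56% and 6.52% of all genes tested. Their median log2 fold change was -0.04. EID1, an inhibitor of p300 acetyltransferase activity that necdin binds, was at 22.2 and 22.5 CPM with control shRNA and 8.46 and 7.32 CPM with USP47 shRNA. The groups were well apart (log2 fold change -1.50, SE 0.15, adjusted p = 0.000535, edgeR). NGFR, the p75 neurotrophin receptor, was at 5.31 and 6.58 CPM against 1.30 and 3.69 CPM (log2 fold change -1.34, SE 0.36, adjusted p = 0.0308, edgeR). The size of this fall rested on which knockdown library was used, at -0.68 without USP47 shRNA replicate 1 and -2.19 without replicate 2. UNC5A, a netrin receptor, was at 2.30 and 2.34 CPM against 0.914 and 0.906 CPM (log2 fold change -1.34, adjusted p = 0.0117, edgeR), and missed the threshold with the DESeq2 Wald test (0.0605). E2F4, a cell cycle transcription factor, was at 0.42 (adjusted p = 0.0498, edgeR), and missed it with library size alone (0.0647), under a minimum of 10 counts per library (0.0505) and without control replicate 1 (0.499) or 2 (0.312), where the log2 fold change was 0.38 and 0.46.

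In the imprinted Prader-Willi region, 12 of 15 listed genes had an identifier and 4 were tested. Of these, 0 were called by edgeR (1, SNHG14, at an unadjusted p under 0.05, and 0 with DESeq2), beside 16.1% of all genes tested. MKRN3, an imprinted gene of this region, was at 0.11 (adjusted p = 0.713, edgeR) and was not called. SNHG14 had 34 and 34 counts with control shRNA and 62 and 45 with USP47 shRNA (0.71, adjusted p = 0.0666, edgeR). SNRPN and SNURF, which share a locus, were listed at 0 in every library. How reads that fall on both genes were counted is not given in the sources used here, so these values need not mean that they were silent.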

How the data were processed

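RNA-Seq of HGC-27 cells with control shRNA or USP47 shRNA was used, 2 libraries per group by the submitters' labels, although the methods speak of triplicate samples. The authors trimmed bases below a quality score of 20, mapped reads to hg19 with STAR 2.7.5c and used SAMtools 1.9 to drop duplicate and low-quality reads, and they tested with DESeq2 1.26.0. The authors deposited raw counts per gene, with FPKM and TPM values made from them. The submitters' processing notes name featureCounts. Whether strand was used is not given in the sources used here, and the labels name a stranded kit but the methods another one. Removing duplicates without molecular identifiers can lower counts of abundant genes.

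The members and lists were chosen with earlier results of these data known. Counts were tested with edgeR 4.0.16 in R 4.3.3 (filterByExpr with a minimum count of 10, TMM, robust quasi-likelihood fit, both directions, Benjamini-Hochberg adjusted p under 0.05). The SE was obtained by dividing the absolute log2 fold change by the root of F. TPM as deposited served for levels between genes, and FPKM for an alternative order. Named genes were all members, USP47, called genes of each list (at most 6), NSMCE3, TRIM27, TRIM28, PJA1, USP7, BYSL, TROAP and the 5 genes most like TRO by distance of log2 CPM (prior count 2). Other list genes in the text were named after their values were seen. Gene models were GENCODE release 44 on GRCh37, and promoters were aligned with Biopython 1.88. Alternatives were DESeq2 1.42.0, other scalings and filters, the replicate block, each library left out, MAGED4 with MAGED4B summed, and the legacy quasi-likelihood test. Same-numbered libraries were not treated as pairs.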

Additional observations from a re-analysis of the deposited data

How the results depend on the processing

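The log2 fold change of TRO, which was chosen for its fall in these libraries, was -2.07 to -1.98 over the alternatives, and -2.18 to -1.80 with a library left out. Of the members, 5 were called lower, or 4 with the DESeq2 Wald test (MAGEE1 had no adjusted p), with at least 10 counts in every library (MAGEE1 not in the fit) and without control replicate 2 (MAGEH1 lost). MAGED1 changed sign with library size alone (-0.07), no filter (-0.03), at least 10 counts (-0.01), the replicate block (-0.01), without control replicate 1 (-0.06) and without USP47 shRNA replicate 2 (-0.20; range with a library left out -0.20 to 0.19), and MAGED2 with library size alone (-0.02) and without USP47 shRNA replicate 2 (-0.15; range -0.15 to 0.26). Neither was called in these fits, and the cause was not tested. Library size alone moved the median of all genes to -0.072.

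Over all genes, 3527 were called, 2447 with the DESeq2 Wald test, 7422 with the replicate block, and 1230 to 7270 with a library left out, where the lone library is assumed to vary like the other group. In the lists other than the members, 13 genes were called, 29 with the replicate block and 5 to 30 with a library left out. Calls were fewest without a control library. Same-numbered libraries deviated together with a correlation of 0.213 in the only 2 pairs, and no label ties the numbers to a batch. The legacy test, chosen after seeing the data, called 3485 genes and the same number of members. MAGEA3, MAGEA6 and E2F4 also missed the threshold with no filter (adjusted p 0.0522, 0.0705 and 0.0823, edgeR). With 2 libraries per group and few reads for MAGEE1, MAGEH1, NDN and MAGEL2, small differences in these genes were not detectable.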
